A study of Homo sapiens with 12 samples.

Results

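Histone genes and SLBP, the gene of the stem-loop binding protein, were followed across 3 groups of libraries of the human melanoma line WM1366. The set holds every listed gene whose symbol starts with HIST1H to HIST4H, H1F, H2AF or H3F, together with SLBP. It came to 23 of the 12931 listed rows, which carry 12929 distinct symbols. Of these, 11 are clustered histone genes, 9 are protein-coding replacement histone genes, 1 is the antisense gene H1FX-AS1, 1 is the pseudogene H3F3AP4 and 1 is SLBP. The GENCODE release 29 annotation has 87 protein-coding genes with such histone symbols, 71 of them with a HIST name and 16 with one of the other names; those not listed are not analysed here. Every row of the deposited files exceeded a CPM (reads scaled to the library total) of 1 in at least 4 of the 12 libraries, so the clustered genes described here are those that passed a floor on low values. Outside R1, HIST1H2BC and HIST1H3H exceeded 1 in R2 replicate 2 alone, so they are listed because R1 is high. HIST1H2BJ did so there only in control replicates 1 and 3 and R2 replicate 2, with control replicate 4 just under. It too is listed because R1 is high. HIST1H2AG exceeded 1 in no control and is listed because R1 and R2 are high. HIST2H2AC exceeded 1 in no R1 library and is listed because the controls are high.

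The series addresses acquired resistance to combined inhibition of MEK, a kinase of the growth factor pathway, and of CDK4 and CDK6, the kinases that start the passage into S phase. Its design text speaks of progressing xenograft tumours, human cells grown in a host animal, from hosts on a control diet or on a diet with both inhibitors. RNA-seq was done on 4 control libraries, 4 libraries of a first combination-diet group called R1 and 4 of a second called R2. The labels give the diet, and for every library, controls included, they also carry a text on cultured melanoma cells given palbociclib, a CDK4 and CDK6 inhibitor, at 0.1 µM and PD0325901, a MEK inhibitor, at 1 nM. What sets R1 and R2 apart is not in the labels, nor whether libraries of a group came from separate tumours or cultures, so the p-values below measure only the spread between these libraries, which may be technical. R1 and R2 are each compared with the same 4 controls.

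Histone proteins package DNA into nucleosomes, and most of their mass is made in S phase from clustered genes whose mRNAs lack introns. Those mRNAs usually end in a short stem-loop that SLBP binds, where other mRNAs end in a poly(A) tail. Replacement histones, such as H1.0, H2A.Z and H3.3, are made from polyadenylated mRNAs throughout the cell cycle and in cells that have stopped dividing. Several clustered genes can also give longer, polyadenylated mRNAs, which have been described in cells that leave the cycle. The library kit named in the labels selects poly(A) RNA, so the values of clustered genes here stand for the forms that such a selection captures, and the stem-loop forms largely escape it.

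The stem-loop sites are shown because they mark where a replication-type mRNA would end. Annotated transcripts of 7 members held a 16-base run of the form GGNNNNTTNNNNNNCC whose outer 6 bases on each side pair. It was searched on the transcript strand of GENCODE release 29, and 217 of 83129 protein-coding transcripts, 0.261%, held it. Absence from the list does not show that a gene lacks a stem-loop. The annotated HIST1H2BK (381 bases) and HIST2H2AC (390 bases) ended before base 440, the earliest start of a stem-loop shown here. Capitals mark the 16 bases of the stem-loop, and the lower-case letters are the 5 bases on either side.
HIST1H2AC: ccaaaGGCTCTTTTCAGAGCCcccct
HIST1H2BC: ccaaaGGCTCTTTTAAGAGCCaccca
HIST1H2BD: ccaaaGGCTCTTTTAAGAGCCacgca
HIST1H3H: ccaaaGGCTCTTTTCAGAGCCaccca
HIST2H2BE: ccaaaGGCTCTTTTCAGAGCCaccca
HIST3H2A: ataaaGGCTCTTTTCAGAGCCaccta
H2AFX: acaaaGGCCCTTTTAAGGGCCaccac
The annotated transcript ran on past the stem-loop by 39 bases in HIST1H2BD, 116 in HIST1H2BC, 390 in HIST3H2A, 769 in HIST1H3H, 1044 in H2AFX, 1114 in HIST1H2AC and 1729 in HIST2H2BE. In HIST1H2AC, HIST1H2BC and HIST1H2BD this was 1 of 2 protein-coding transcripts of the gene.

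Of the 23 members, 20 had a promoter of 250 bases before and 50 bases after the start in RefSeq (GRCh38.p14). H2A and H2B genes often lie head to head, and 3 such pairs were listed in full. The 2 promoters of a pair overlapped by 255 bases for HIST1H2BC and HIST1H2AC and by 253 for HIST1H2BJ and HIST1H2AG, both pairs on chromosome 6. For HIST2H2BE and HIST2H2AC on chromosome 1 the overlap was 265 bases. The promoters of the second and the last pair are shown from the H2B side because these pairs behaved differently below. Capitals mark the TATA box TATAAA, the box CCAAT and the octamer ATTTGCAT on either strand, and overlapping matches run together.
HIST1H2BJ promoter, chr6:27132746-27133045, minus strand: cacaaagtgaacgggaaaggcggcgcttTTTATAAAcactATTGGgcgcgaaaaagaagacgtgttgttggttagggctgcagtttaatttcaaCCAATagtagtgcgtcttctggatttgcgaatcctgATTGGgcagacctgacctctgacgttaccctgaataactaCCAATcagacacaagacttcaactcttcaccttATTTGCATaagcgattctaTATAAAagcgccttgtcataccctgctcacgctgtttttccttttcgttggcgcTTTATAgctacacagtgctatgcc
HIST2H2BE promoter, chr1:149886633-149886932, minus strand: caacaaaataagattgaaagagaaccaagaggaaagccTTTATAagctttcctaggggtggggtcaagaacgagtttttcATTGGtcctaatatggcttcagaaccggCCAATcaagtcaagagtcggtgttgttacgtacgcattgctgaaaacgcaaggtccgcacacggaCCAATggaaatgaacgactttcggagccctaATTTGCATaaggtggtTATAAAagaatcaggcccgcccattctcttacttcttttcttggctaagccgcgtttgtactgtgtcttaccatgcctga
The octamer was in 7 of the 11 clustered promoters and in 1 of 8 replacement promoters, against 1.77% of all 35116 promoters. TATAAA was in 9 of 11 clustered and 4 of 8 replacement promoters, against 11.5% of all. CCAAT was in all 11 clustered and 6 of 8 replacement promoters, against 34.6% of all. Both printed promoters held all 3 motifs.

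The libraries held 20003891 to 39009384 reads in listed genes, and the 22 histone rows took 0.204% ± 0.0382 (SD, n = 4) of the reads in R1, 0.168% ± 0.0129 in R2 and 0.260% ± 0.0350 in controls. Reads of the mitochondrial genome made up 2.54% ± 0.517 in R1, 7.83% ± 2.59 in R2 and 8.67% ± 2.20 in controls. Of 11 melanoma markers, 4 were listed (MITF, PMEL, CSPG4 and MCAM), and MLANA, TYR, DCT, TYRP1, SOX10, S100B and S100A1 are not analysed here. MCAM was at 587 to 950 in all libraries, and the others moved in different directions. MITF read 15.3 to 29.1 in R1, 27.6 to 33.5 in R2 and 42.1 to 59.95 in controls. PMEL read 22.4 to 35.7, 6.75 to 12.5 and 4.05 to 6.72 in the same order, and CSPG4 read 52.0 to 104, 5.73 to 21.1 and 19.9 to 37.8. The summed level of the 4 of 7 listed endothelium markers was 375 to 499 in R1, 126 to 157 in R2 and 133 to 172 in controls; TIE1 made up most of it, and EGFL7 was at 0 in 3 R2 libraries. Fibroblast and pericyte markers (4 of 8 listed) summed to 84.7 to 154 in R1, 100.1 to 331 in R2 and 232 to 327 in controls. COL1A1 made up most of this sum, and the others did not all follow it. LUM and PDGFRB in R1 replicate 2 (10.8 and 9.08) were above every control. PDGFRB was at 0.116 to 0.468 in R2 and 1.56 to 5.78 in controls, and RGS5 at 3.40 to 9.27 and 3.09 to 4.62. Of the leukocyte markers 1 of 8 was listed (CSF1R, at most 6.19), of the keratinocyte markers 1 of 4 (KRT10, 13.8 to 34.7) and of the red cell markers 0 of 5. The part of these in the histone results was not tested, and in bulk samples fewer cells of a type cannot be told apart from less RNA per cell.

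A pair of libraries stood apart in the members. R2 replicate 2 was the highest of the R2 libraries in 10 of 11 clustered genes, with a median ratio of 3.83 to the mean of the other three, whereas it was the highest in 30.7% of all genes. R1 replicate 2 was the lowest of the R1 libraries in 7 of 11 clustered genes, in 6 of 9 replacement genes and in SLBP, against 32.0% of all genes. It also held the lowest summed level of 51 S phase genes, 2845 against 4954 to 5076 in the other R1 libraries, and of 36 G2 and mitosis genes, 2519 against 5143 to 5507. Results that rest on these libraries are given with and without them.

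Clustered histone genes were higher in R1 than in controls, with 2 exceptions. Values are normalised signal, close to CPM, and fold changes are differences of log2(value + 0.5), which understate the change of genes with low values. By limma with Benjamini-Hochberg adjustment over all genes (adjusted p under 0.05), 8 of the 11 rose, 2 fell and 1 was not called. The 8 include HIST1H2BC, HIST1H2BJ and HIST1H3H, listed because R1 is high, and HIST1H2AG, listed because R1 and R2 are high. The 2 include HIST2H2AC, listed because the controls are high. The floor on low values thus favoured their directions, and they enter the counts, median and sum that follow. The median log2 fold change of the 11 was 1.41, against 0.01 over all genes. Among all 12931 rows, 43.8% were called in this comparison, 22.4% upwards and 21.4% downwards. The summed value of the 11 genes was 138, 128, 200 and 172 in R1 (mean 160 ± 32.9 SD) and 78.4, 56.7, 67.7 and 63.1 in controls (66.5 ± 9.15), so that every R1 library lay above every control. Without both libraries that stand apart, 9 rose and 2 fell.

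**Figure D1:**
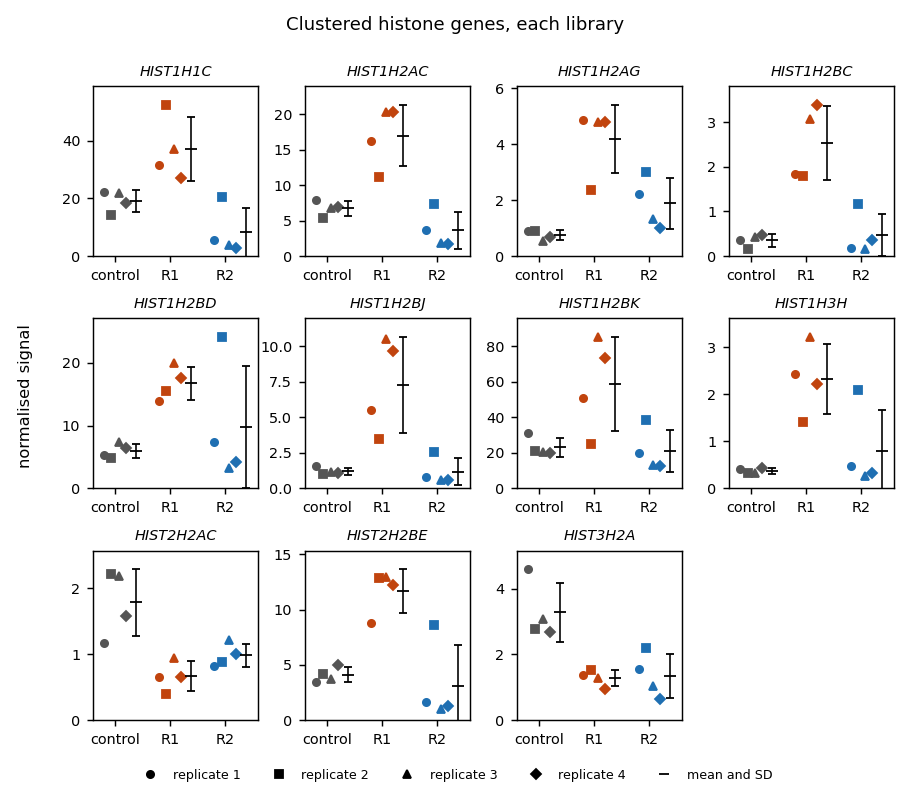
Normalised signal (y axis, linear from 0) of the 11 clustered histone genes in control, R1 and R2. Each symbol is 1 library, the symbol shape gives the replicate number, and the black bar gives the mean and SD of 4 libraries, with lower ends below 0 not drawn; R2 replicate 2 (blue square) lies above the other R2 libraries in 10 of the 11 panels.

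HIST1H2BK, an H2B gene on chromosome 6 (GENCODE release 29, 27146418 to 27146798), had the highest level of the clustered genes per kilobase. The 381 annotated bases behind that level leave out its RefSeq start, so the level per kilobase may be too high. The values of HIST1H2BK were 51.1, 24.8, 85.5 and 73.5 in R1 and 30.8, 20.95, 20.5 and 19.5 in controls. R1 replicate 2 lay within the control range, and the other R1 libraries lay above it. The log2 fold change was 1.22 (SE 0.37, adjusted p 0.0159). The call was lost without R1 replicate 3 (0.99, adjusted p 0.0554) and without R1 replicate 4 (1.07, adjusted p 0.0504). Of the 50-base stretches of its transcript, 74.1% also occur in transcripts of other genes, so the way the authors assigned such reads, not given in the sources used here, bears on its level.

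HIST1H2BJ, another H2B gene, showed the highest fold change of the members on the log2(value + 0.5) scale. The ratio of means was higher for HIST1H2BC (7.20) and HIST1H3H (6.42). Like these, HIST1H2BJ is listed because R1 is high. HIST1H2BJ read 5.48, 3.47, 10.6 and 9.70 in R1 and 1.52, 0.974, 1.15 and 1.05 in controls. The groups did not overlap, and the mean was 6.22-fold higher in R1 (log2 fold change 2.11, SE 0.35, adjusted p 0.000261). Its head-to-head partner HIST1H2AG read 4.85, 2.37, 4.78 and 4.79 in R1 and 0.882, 0.896, 0.521 and 0.683 in controls. Those groups too were apart, with R1 replicate 2 the lowest of R1 and the others close together (1.88, SE 0.27, adjusted p 8.12e-05). The pair thus rose in R1 on both sides of its shared promoter. The floor on low values favoured that direction for both genes, since HIST1H2AG is listed because R1 and R2 are high.

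The HIST1H2BC and HIST1H2AC pair also rose on both sides. HIST1H2BC read 1.84, 1.799, 3.08 and 3.40 in R1 and 0.361, 0.156, 0.417 and 0.473 in controls, from 308 reads in all in R1 and 30 in controls. No R1 library came near the controls (ratio of means 7.20, log2 fold change 1.81, SE 0.29, adjusted p 0.000189). HIST1H2BC is listed because R1 is high, so the floor on low values favoured this separation. HIST1H2AC read 16.1, 11.1, 20.3 and 20.3 in R1 and 7.85, 5.30, 6.77 and 6.93 in controls. Its groups were separate as well, at a smaller fold change of 1.25 (SE 0.34, adjusted p 0.00789).

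The pair on chromosome 1 moved in opposite directions. HIST2H2BE, the H2B gene, read 8.76, 12.9, 12.9 and 12.3 in R1 and 3.45, 4.21, 3.70 and 4.99 in controls. It rose by 1.41 (SE 0.42, adjusted p 0.0138), with groups that did not overlap. HIST2H2AC, the H2A gene that shares its promoter, read 0.655, 0.395, 0.949 and 0.649 in R1 and 1.16, 2.22, 2.19 and 1.58 in controls. It fell by 0.97 (SE 0.20, adjusted p 0.00156), again without overlap. HIST2H2AC is listed because the controls are high, so the floor on low values favoured its fall and with it the contrast within the pair. HIST2H2AC was low in every group, with 82 reads in all in R1 and 158 in controls, and 30.5% of its 50-base stretches occur in other genes, so its value depends on how shared reads were assigned.

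The other called clustered genes in R1 were HIST1H2BD, an H2B gene, HIST1H3H, an H3 gene, and HIST3H2A, an H2A gene outside the main clusters. HIST1H2BD read 13.9, 15.6, 20.0 and 17.6 in R1 against 5.21, 4.79, 7.29 and 6.46 in controls, a rise of 1.43 (SE 0.42, adjusted p 0.0131). HIST1H3H read 2.43, 1.40, 3.23 and 2.22 against 0.401, 0.312, 0.313 and 0.420, a rise of 1.67 (SE 0.33, adjusted p 0.000982). Both had all R1 libraries above all controls. HIST3H2A read 1.38, 1.54, 1.29 and 0.958 against 4.61, 2.76, 3.07 and 2.68, a fall of 1.06 (SE 0.25, adjusted p 0.00313), with all R1 libraries below all controls. In all, 10 of the 11 clustered genes had ranges in R1 and control that did not overlap; over all rows, 20.8% were wholly higher and 19% wholly lower in R1. Both a call and separate ranges were seen for 9 of the 11, against 36.8% of all rows. HIST1H2BC, HIST1H2BJ, HIST1H3H and HIST2H2AC, listed through the group where they are high, are among the 9. So is HIST1H2AG, listed because R1 and R2 are high.

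**Figure D2:**
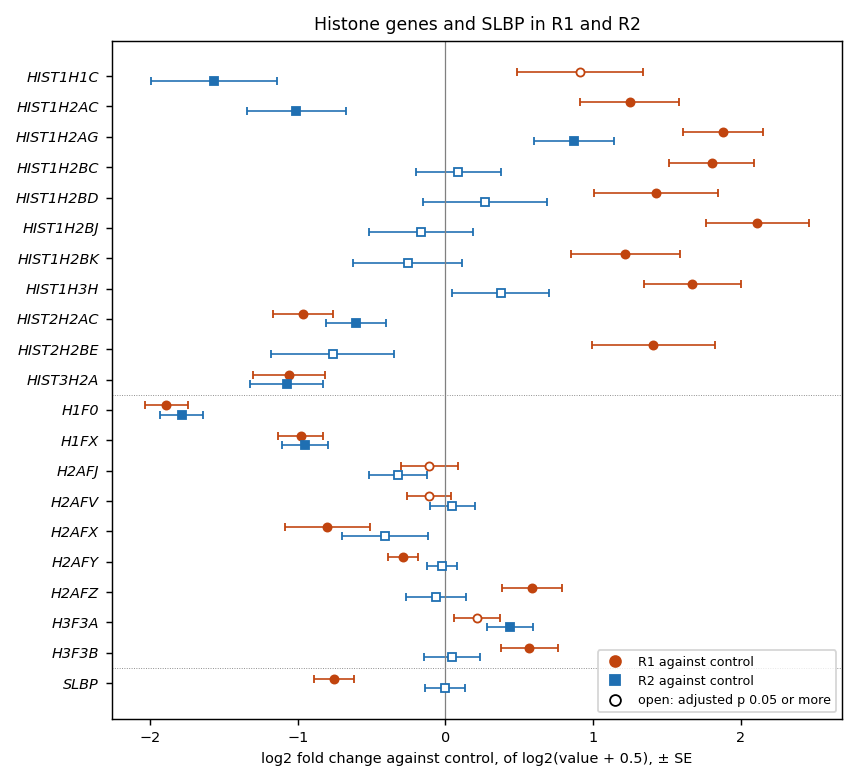
Log2 fold change against control (x axis) with its standard error for the 20 protein-coding histone genes and SLBP, R1 in orange circles and R2 in blue squares. Filled symbols have an adjusted p under 0.05; most clustered genes (upper block) lie right of 0 in R1 and near or left of 0 in R2, while H1F0 and H1FX lie left of 0 in both.

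In R2 the clustered genes did not share the rise. Against controls, 1 of 11 rose and 4 fell, with a median log2 fold change of -0.26 (0.03 over all genes); 28.4% of all rows were called in this comparison, 13.6% upwards and 14.8% downwards. The summed value was 43.9, 111, 27.5 and 26.4 in R2. The other three R2 libraries lay below every control and R2 replicate 2 above every control. Without the libraries that stand apart, 1 rose and 6 fell.

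HIST1H2AC fell in R2 with values of 3.61, 7.35, 1.78 and 1.65, below the controls in all but replicate 2 (log2 fold change -1.01, SE 0.34, adjusted p 0.0367). The call was lost without R2 replicate 1, 3 or 4 or without control replicate 1, 3 or 4, with an adjusted p of 0.0513 to 0.113, by edgeR (0.0883) and with the replicate number as a block (0.0661). HIST3H2A read 1.54, 2.19, 1.03 and 0.643 in R2, all below the controls, and fell by 1.08 (SE 0.25, adjusted p 0.00469). HIST2H2AC, listed because the controls are high, read 0.814, 0.884, 1.22 and 1.01 in R2, which reached the lowest control. It fell by 0.60 (SE 0.20, adjusted p 0.0382). Leaving out R2 replicate 1, 2 or 4, or control replicate 2, 3 or 4, ended that call (0.0589 to 0.113, adjusted p).

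HIST1H2AG was the 1 clustered gene that rose in R2, at 2.21, 3.03, 1.31 and 1.01, all above the controls (0.87, SE 0.27, adjusted p 0.0271). It is listed because R1 and R2 are high, so the floor on low values favoured this rise. Leaving out R2 replicate 1 or 2, or control replicate 3 or 4, ended the call (0.0615 to 0.0782, adjusted p), as did a pseudocount of 2 (0.0515). HIST2H2BE read 1.66, 8.57, 0.967 and 1.29 in R2. The other three R2 libraries lay below every control and R2 replicate 2 above them (-0.77, SE 0.42, adjusted p 0.187). Without R2 replicate 2 it fell by 1.35 (adjusted p 0.000167). HIST1H2BK read 19.8, 38.4, 12.9 and 12.6 (-0.26, SE 0.37, adjusted p 0.65), and without both libraries that stand apart it fell by 0.59 (adjusted p 0.0458).

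HIST1H2AG and HIST3H2A were the 2 clustered genes both called and apart from the controls in R2, against 26.1% of all rows. Of these, HIST1H2AG is listed because R1 and R2 are high. The remaining clustered genes were not called in R2. HIST1H2BJ read 0.814, 2.56, 0.593 and 0.597, with a log2 fold change of -0.16 (SE 0.35). HIST1H2BD read 7.36, 24.2, 3.28 and 4.22 (0.27, SE 0.42), HIST1H2BC 0.174, 1.16, 0.156 and 0.367 (0.09, SE 0.29) and HIST1H3H 0.465, 2.09, 0.2496 and 0.321 (0.37, SE 0.33). In each of these 4 genes R2 replicate 2 was above every control and at least 1 other R2 library was within or below the control range.

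Compared directly, 0 of the 11 clustered genes were higher in R2 than in R1 and 9 were lower, with a median log2 difference of -1.48; 46.8% of all rows were called here, 22.8% upwards and 24% downwards. Without adjustment as well, none of the 11 was higher at p under 0.05, and 0 were called higher by edgeR or DESeq2. The 9 lower genes include HIST1H2BC, HIST1H2BJ and HIST1H3H, which are listed because R1 is high. HIST1H2BJ was 6.40-fold lower in R2 by the ratio of means (log2 difference -2.28, SE 0.35, adjusted p 0.000135), HIST1H2AC -2.26 (SE 0.34, adjusted p 9.92e-05) and HIST2H2BE -2.17 (SE 0.42, adjusted p 0.000769), each with groups apart. HIST1H2BD fell by 1.16 (adjusted p 0.0348), and that call was lost without R1 replicate 3 or 4 or R2 replicate 1, 3 or 4 (adjusted p 0.0601 to 0.114), by edgeR (0.173), by DESeq2 (0.25) and with the replicate block (0.0513). The genes not called, HIST2H2AC and HIST3H2A, were those that fell in both groups against control (log2 differences of 0.36, SE 0.20, and -0.02, SE 0.25).

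Linker histones bind DNA between nucleosomes, and 3 of their genes were listed. H1F0 (chromosome 22, 37805093 to 37807436, GENCODE release 29) encodes H1.0, the linker histone known to accumulate in resting and differentiated cells. It read 221, 299, 319 and 290 in R1, 282, 366, 265 and 299 in R2 and 1061, 1269, 946 and 917 in controls. The combination-diet libraries reached at most 366, far below the lowest control. By limma H1F0 fell by 1.89 in R1 (SE 0.14, adjusted p 2.5e-07), a 3.71-fold lower mean, and by 1.79 in R2 (SE 0.14, adjusted p 6.57e-07), a 3.46-fold lower mean. R2 and R1 differed by 0.10 (SE 0.14, adjusted p 0.58). No setting tried ended either call.

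H1FX, the gene of the linker histone H1.10, was lower in both groups as well. It read 103, 116, 180 and 135 in R1, 124, 148, 138 and 123 in R2 and 214, 272, 290 and 262 in controls. All 8 combination-diet libraries lay below the 4 controls, by 0.98 in R1 (SE 0.15, adjusted p 0.000166) and by 0.95 in R2 (SE 0.15, adjusted p 0.00036) on the log2 scale. The antisense gene H1FX-AS1, which overlaps it, read 1.92 to 3.57 in R1, 2.48 to 4.003 in R2 and 5.02 to 6.51 in controls (-0.89, adjusted p 0.00192, and -0.79, adjusted p 0.00691). The kit does not mark strand, so reads of the overlapping parts cannot be told apart. Over all rows, 6.47% were called down in both comparisons with control.

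HIST1H1C, the clustered gene of the linker histone H1.2, differed from both. It read 31.5, 52.5, 37.0 and 27.1 in R1, 5.44, 20.6, 3.93 and 2.75 in R2 and 22.2, 14.1, 21.8 and 18.3 in controls. Every R1 library exceeded every control, yet the rise of 0.91 (SE 0.43) missed the threshold (adjusted p 0.097). Without R2 replicate 2, whose spread enters the shared error estimate, it passed at the same fold change (adjusted p 0.00495). In R2 it fell by 1.57 (SE 0.43, adjusted p 0.0133); edgeR (0.0642) and DESeq2 (0.0859) did not call it, and R2 replicate 2 lay within the control range. Of the summed signal of the 3 linker genes, HIST1H1C made up 8.25% ± 2.31 (SD, n = 4) in R1, 1.70% ± 1.46 in R2 and 1.47% ± 0.386 in controls; the 3 transcripts differ in length, so these are shares of signal and not of molecules.

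**Figure D3:**
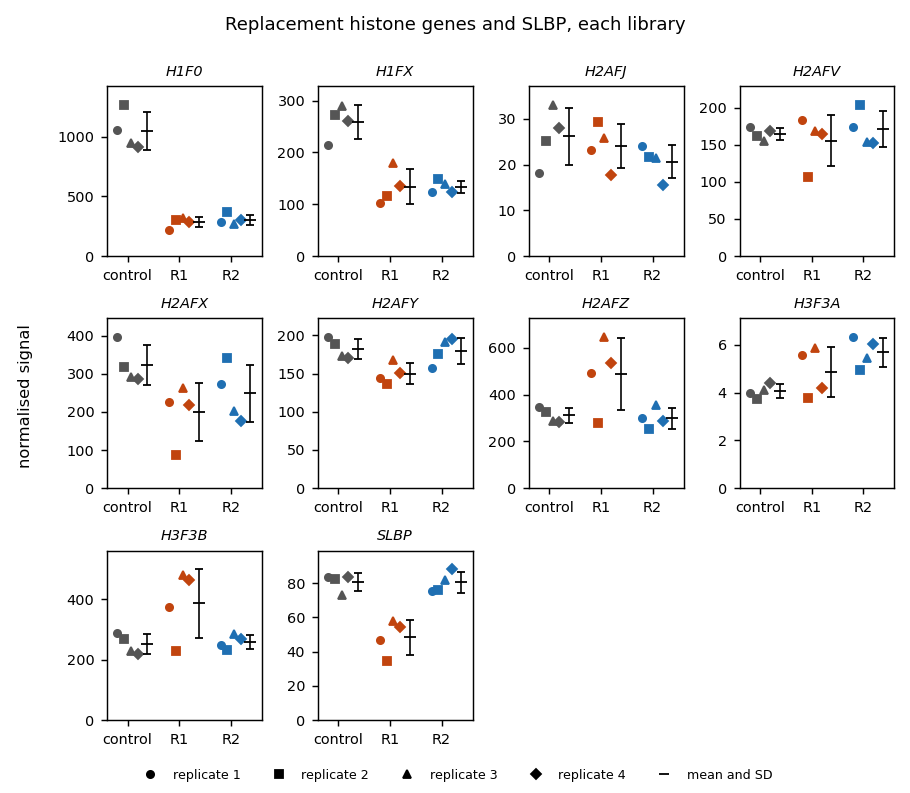
Normalised signal (y axis, linear from 0) of the 9 replacement histone genes and SLBP in control, R1 and R2. Each symbol is 1 library and the black bar gives the mean and SD of 4; H1F0 and H1FX are lower in all 8 combination-diet libraries, and SLBP is lower in the R1 libraries than in all others.

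The H2A variants moved less. H2AFX encodes H2A.X, which is phosphorylated at DNA breaks and whose gene carries the stem-loop shown above. It read 226, 87.9, 263 and 219 in R1, 274, 343, 204 and 177 in R2 and 398, 318, 291 and 288 in controls. R1 lay below all controls, with replicate 2 far below the rest (-0.80, SE 0.29, adjusted p 0.0368). Without R1 replicate 2 the difference was -0.45 (adjusted p 0.0737), and the call was also lost without any 1 of the 4 controls (adjusted p 0.0524 to 0.0956), by edgeR (0.055) and with the replicate block (0.054). In R2 the difference was -0.41 (SE 0.29, adjusted p 0.317), and without both libraries that stand apart H2AFX fell by 0.58 (adjusted p 0.0113).

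H2AFZ and H2AFV encode the H2A.Z variants found at promoters. H2AFZ read 491, 279, 648 and 536 in R1, 300, 253, 358 and 285 in R2 and 348, 328, 287 and 284 in controls. R1 was above the other groups except for replicate 2, the lowest of R1 and below all controls (0.59, SE 0.20, adjusted p 0.0297). Leaving out R1 replicate 1, 3 or 4, or control replicate 3 or 4, ended that call (0.0632 to 0.0942, adjusted p). Without R1 replicate 2 the rise was 0.84 (adjusted p 0.000226). Against R1, H2AFZ was lower in R2 by 0.66 (SE 0.20, adjusted p 0.0166), which did not hold without R1 replicate 3 (-0.50, adjusted p 0.0563). H2AFV ranged from 106 to 204 over all 12 libraries, with log2 fold changes of -0.11 in R1 and 0.05 in R2 (SE 0.15 each, adjusted p 0.576 and 0.852).

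H2AFY encodes macroH2A1, a variant with a large extra domain. It read 144, 137, 168 and 151 in R1, 157, 176, 191 and 195 in R2 and 198, 189, 173 and 171 in controls. R1 was below the controls by 0.29 (SE 0.10, adjusted p 0.034), without overlap, and the R2 difference was -0.03 (SE 0.10, adjusted p 0.876). Leaving out R1 replicate 1, 2 or 4, or control replicate 1 or 2, ended the R1 call (0.0598 to 0.0976, adjusted p), as did values rescaled without mitochondrial and ribosomal protein genes (0.0559). R2 was above R1 by 0.26 (adjusted p 0.0487), which was lost in 10 of the 12 fits that left out 1 library, all but those without R1 replicate 3 and R2 replicate 1 (adjusted p 0.0549 to 0.13), by edgeR (0.0539), with the replicate block (0.0634), with only genes of a mean of at least 5 (0.0503) and with the rescaled values (0.0502). H2AFJ, the gene of H2A.J, ranged from 15.5 to 33.1, with log2 fold changes of -0.11 in R1 and -0.32 in R2 (SE 0.19 each, adjusted p 0.668 and 0.238).

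H3F3A and H3F3B encode the same protein, the replacement histone H3.3. H3F3B read 377, 228, 480 and 464 in R1, 249, 233, 287 and 269 in R2 and 290, 268, 230 and 220 in controls. R1 replicate 2 lay within the control range and the other R1 libraries above it (0.57, SE 0.19, adjusted p 0.0265). It did not hold on leaving out R1 replicate 1, 3 or 4, or control replicate 3 or 4 (0.0517 to 0.0843, adjusted p), and without R1 replicate 2 the rise was 0.80 (adjusted p 0.000183). R2 was below R1 by 0.52 (SE 0.19, adjusted p 0.0365), lost without R1 replicate 1, 3 or 4 or R2 replicate 1, 2 or 4 (adjusted p 0.058 to 0.113); against control it was 0.04 (SE 0.19).

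H3F3A was listed at only 3.74 to 6.34. It read 6.34, 4.93, 5.43 and 6.01 in R2, above all controls at 3.97, 3.74, 4.12 and 4.41, a rise of 0.44 (SE 0.15, adjusted p 0.0485), and 5.58, 3.77, 5.88 and 4.17 in R1 (0.21, SE 0.15, adjusted p 0.282). The R2 call was lost without R1 replicate 4, without R2 replicate 1, 3 or 4 or without any 1 of the 4 controls (adjusted p 0.0544 to 0.126), by edgeR (0.0536), by DESeq2 (0.0553) and with a pseudocount of 0.1 (0.0509). Of its 50-base stretches 11.7% occur in other genes, among them the pseudogene H3F3AP4, all of whose stretches occur elsewhere. H3F3AP4 was listed at 4.96 to 9.04 in R1, 3.65 to 5.74 in R2 and 2.68 to 5.15 in controls (0.82, adjusted p 0.00532 in R1), and reads of these genes cannot be told apart with certainty.

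In all, 6 of 9 replacement genes were called in R1 (2 up, 4 down), 3 of 9 in R2 (1 up, 2 down) and 3 of 9 between R2 and R1 (1 up, 2 down). The shares over all rows were 43.8%, 28.4% and 46.8%, so the R2 count lay near its background and the count between R2 and R1 below it. H1F0 and H1FX were the replacement genes whose calls against control held in every setting tried. Their median log2 fold changes as a class were -0.11 in R1 and -0.07 in R2. Without H1F0 and H1FX, the summed replacement signal was 1409 ± 381 (SD, n = 4) in R1, 1185 ± 60.1 in R2 and 1265 ± 125 in controls, with R1 replicate 2 at 871 and the other R1 libraries at 1450 to 1760.

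Per kilobase of exon, 4 replacement genes stood above every clustered gene in controls. H1F0 was at 447 per kilobase, H2AFX at 201, H1FX at 172 and H2AFZ at 135, and the highest clustered genes were HIST1H2BK at 60.2 and HIST1H1C at 29.8. In R1 the order was H2AFZ at 212, HIST1H2BK at 154, H2AFX at 123, H1F0 at 120 and H1FX at 88.4. In R2 it was H2AFX at 155, H2AFZ at 130, H1F0 at 129, H1FX at 88.5 and HIST1H2BK at 54.9. Neighbours in each order had ranges per kilobase that overlapped over libraries, apart from H1F0 above H2AFX, H2AFZ above HIST1H2BK and HIST1H2BK above HIST1H1C in controls and H1F0 above H1FX in R2, so the rest of each order is not settled. HIST1H3H was lowest among protein-coding members in controls, at 0.292 per kilobase. Lengths are the union of annotated exons, which can be longer than the transcript present.

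SLBP (chromosome 4, 1692800 to 1712555, minus strand, GENCODE release 29) is the factor that binds the stem-loop for processing, export and translation of replication-type histone mRNAs. It read 46.5, 34.6, 57.7 and 54.6 in R1, 75.4, 76.1, 82.0 and 88.4 in R2 and 83.4, 82.3, 73.0 and 83.6 in controls. All R1 libraries lay below all others, and R2 and controls overlapped. SLBP fell by 0.76 in R1 (SE 0.14, adjusted p 0.000556), the mean being 1.67-fold lower. In R2 the difference was -0.00 (SE 0.14, adjusted p 0.991), and R2 was above R1 by 0.75 (SE 0.14, adjusted p 0.00053). Without R1 replicate 2, the lowest library, the R1 fall was 0.61. The fall in SLBP and the higher clustered signal were thus seen in the same 4 libraries; within R1 the library lowest in SLBP was also the lowest in 7 of 11 clustered genes.

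Genes near SLBP moved with it. Within 5 Mb on chromosome 4 lay 52 other listed genes. In R1 40 of them fell and 1 rose (median log2 fold change -0.79), where 21.4% of all rows were called down. In R2, 5 of the 52 fell and 3 rose, with a median of -0.03. R2 was above R1 for 35 of them and below for 2 (median 0.66). Leaving out any 1 library, 38 to 41 of the 52 fell in R1. The part of the region in the level of SLBP was not tested.

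**Figure D4:**
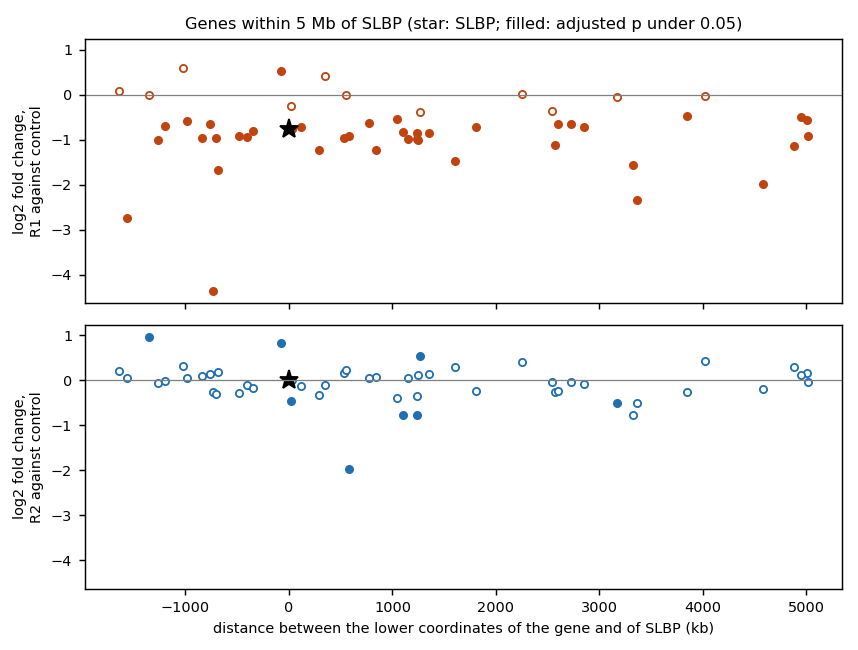
Log2 fold change (y axis) of the 52 listed genes within 5 Mb of SLBP against the distance from it in kilobases (x axis), R1 above and R2 below. The star is SLBP and filled symbols have an adjusted p under 0.05; in R1 40 of 52 genes are filled below 0 and in R2 5 are.

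Genes around other members were counted in the same way. Over all rows, 22.4% rose and 21.4% fell in R1, and 13.6% rose and 14.8% fell in R2. Of 53 listed genes within 5 Mb of H1FX on chromosome 3, 28 fell and 2 rose in R1 (median -0.37), and 6 fell and 6 rose in R2 (median 0.01), where H1FX fell by nearly the same amount. Of 31 genes around H2AFJ on chromosome 12, 22 fell in R1 and 15 in R2, and none rose in either (medians -0.63 and -0.33). Around H1F0 on chromosome 22, 25 of 95 fell and 15 rose in R1 and 15 fell and 8 rose in R2 (medians -0.10 and -0.04), and the shares that fell, 26.3% in R1 and 15.8% in R2, were near those over all rows. Around HIST3H2A on chromosome 1, which fell, 23 of 55 genes rose and 1 fell in R1 (median 0.25).

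Around the HIST1 genes, other genes were called in both directions in R1, at shares not far from those over all rows. Within 5 Mb of the cluster on chromosome 6, 109 other genes were listed, 10 of them HLA genes. In R1, 30 (27.5%) rose and 17 (15.6%) fell (median 0.05), against 22.4% and 21.4% of all rows. In R2, 20 (18.3%) rose and 5 (4.59%) fell (median 0.05), against 13.6% and 14.8% of all rows, so the fallen share was lower there. Of the 12 listed genes between the first and last HIST1 member that are not histone genes, 3 rose in R1 (HCG11, HMGN4 and ZNF184) and 0 fell, with a median of 0.25, a risen count near the share over all rows. The 8 HIST1 members in that span had R1 fold changes of 0.91 to 2.11, and 7 were called. Of these, HIST1H2BC, HIST1H2BJ and HIST1H3H are listed because R1 is high, and HIST1H2AG because R1 and R2 are. In R2 the median of the 12 was -0.02, and 1, HCG11, rose. Around the HIST2 pair on chromosome 1, 20 of 112 genes rose and 39 fell in R1 (median -0.11).

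**Figure D5:**
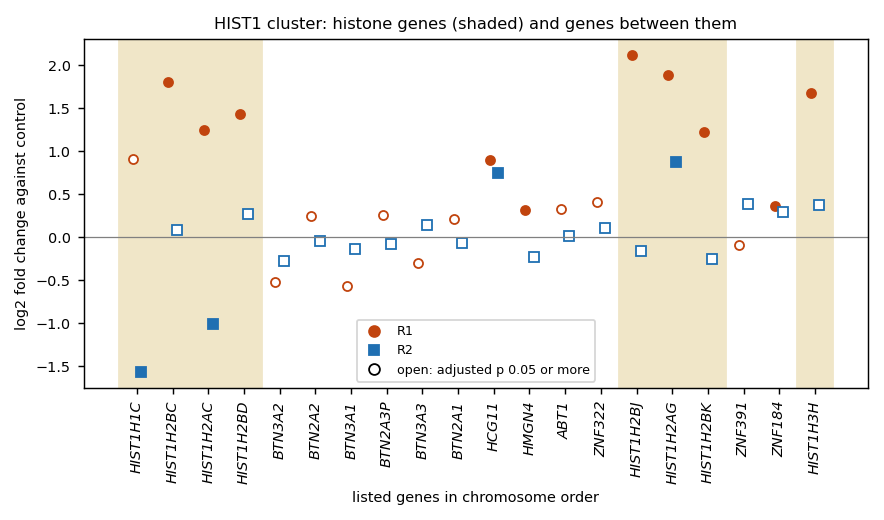
Log2 fold change against control (y axis) of the 20 listed genes from the first to the last HIST1 member in chromosome order (x axis, not to scale), R1 in orange circles and R2 in blue squares. Histone genes are on the shaded bands and filled symbols have an adjusted p under 0.05; 7 of 8 histone genes and 3 of 12 other genes rose in R1.

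Genes that act on histone mRNAs did not move one way. Of 35 genes of histone mRNA processing and decay other than SLBP, 7 rose and 7 fell in R1 (median log2 fold change 0.09). Over all rows, 22.4% rose and 21.4% fell in R1, and 13.6% rose and 14.8% fell in R2. The R1 counts lay near these shares, and the R2 counts given below lay under them. LSM11, a part of the U7 particle that guides cleavage after the stem-loop, rose by 0.71 (18.6 ± 2.57 in R1 and 11.2 ± 1.16 in controls, SD, n = 4; adjusted p 0.00192). SNRPE, a core protein of spliceosomal and U7 particles, rose by 1.58 (adjusted p 1.19e-05), whereas SNRPD3 of the same ring fell by 0.71 (adjusted p 0.000629). SYMPK, the scaffold of the cleavage factor, fell by 0.55 (adjusted p 0.000211). In R2, 2 rose, among them NCBP2 of the cap-binding complex (0.42, adjusted p 0.00363), and 3 fell, among them CDK9 (-0.52, adjusted p 0.000964) and NELFB (-0.47, adjusted p 0.00509). In R2, 5 rose without R1 replicate 2, and 1 rose without R2 replicate 3, control replicate 3 or control replicate 4. Between R2 and R1, 9 of the 35 were higher and 6 lower in R2 (median 0.01), against 22.8% and 24% of all rows.

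Of 45 listed genes of histone chaperones and deposition, 6 rose and 16 fell in R1 (median -0.23), and 3 rose and 3 fell in R2 (median 0.03). Over all rows, 22.4% rose and 21.4% fell in R1, so fewer of the 45 rose and more fell than those shares. In R2, where 13.6% of all rows rose and 14.8% fell, both counts lay below the shares. CHAF1B, a subunit of CAF-1 that places new H3 and H4 behind replication forks, fell by 1.27 in R1 (19.7 ± 5.78 against 46.9 ± 6.72; adjusted p 0.000299). SRCAP and VPS72, of the complex that inserts H2A.Z, fell by 0.84 (adjusted p 0.000213) and 0.68 (adjusted p 0.000164), in the libraries where H2AFZ itself was called higher. ACTL6A, a subunit of several remodelling complexes, rose by 0.62 (adjusted p 0.000356). In R2, INO80 fell by 0.72 (adjusted p 6.74e-05) and CENPA, the centromeric H3, rose by 0.70 (adjusted p 0.0129). In R2, 5 rose and 5 fell without R1 replicate 2, and 1 rose without R2 replicate 1 or 2 or control replicate 2, 3 or 4. Over all fits without 1 library, 5 to 9 rose and 12 to 18 fell in R1. Between R2 and R1, 17 of the 45 were higher and 6 lower in R2 (median 0.24), against 22.8% and 24% of all rows. Leaving out 1 library gave 12 to 17 higher and 4 to 10 lower.

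Among genes of S phase and of mitosis, more fell than rose in R1 with all libraries, and more rose than fell without R1 replicate 2. Of 51 S phase and replication genes other than members, 3 rose and 11 fell (median -0.15), and of 36 genes of G2 and mitosis 0 rose and 6 fell (median -0.18). Over all rows, 22.4% rose and 21.4% fell. The risen counts lay below their share, and the fallen counts lay near theirs for S phase and below it for mitosis. Without R1 replicate 2, 11 S phase genes rose and 7 fell, and 10 mitotic genes rose, while the count of fallen mitotic genes was again 6. Without control replicate 1 or 2, 2 S phase genes rose and 4 fell; without R1 replicate 1, control replicate 3 or control replicate 4, 1 rose. RPA1, of the protein that coats single-stranded DNA, fell by 1.04 in R1 (adjusted p 8.65e-07) and fell by 0.90 in R2 (adjusted p 5.8e-06). MCM5, of the replicative helicase, fell by 0.85 in R1 (adjusted p 0.00338), and FOXM1, which drives mitotic genes, fell by 1.33 (adjusted p 0.000255). E2F8, a repressor of the E2F family, rose in both, by 1.35 in R1 (adjusted p 0.00195) and by 3.50 in R2 (adjusted p 9.25e-07).

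In R2, 2 S phase genes rose and 5 fell and 4 mitotic genes rose and 5 fell, counts that reached 6 and 8 and 9 and 7 without R1 replicate 2. Over all rows, 13.6% rose and 14.8% fell in R2. With all libraries, the S phase counts lay below these shares and the mitotic counts near them. Without R2 replicate 2 or control replicate 1, 2 or 3, 3 mitotic genes fell. CCNE1, the cyclin that partners CDK2 at the entry to S phase, rose by 1.13 (24.1 ± 1.69 in R2 and 10.8 ± 1.15 in controls; adjusted p 2.31e-05), and MKI67, a marker of cycling cells, by 0.79 (adjusted p 0.00525). PRC1, of the spindle midzone, fell by 0.92 (adjusted p 0.00156). Between R2 and R1, 13 of 51 S phase genes were higher and 2 lower in R2, and 11 of 36 mitotic genes were higher and 1 lower. Over all rows, 22.8% were higher and 24% lower. The count of higher genes was near that share for S phase and somewhat above it for mitosis, and the counts of lower genes were below it. Of the clustered histone genes, 9 of 11 were lower. Without R1 replicate 2 the counts of higher and lower genes were 10 and 9 for S phase and 11 and 8 for mitosis. Without any other single library, 0 to 2 S phase genes and 0 mitotic genes were lower in R2.

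Genes of poly(A) addition, the step that makes the tail by which the kit selects RNA, were also counted. Of 15, 3 rose and 3 fell in R1 (median -0.14), and 4 rose and 0 fell in R2 (median 0.17). The R1 counts lay near the shares over all rows, 22.4% and 21.4%. In R2, 13.6% of all rows rose and 14.8% fell. Between R2 and R1, 10 of the 15 were higher and 1 lower in R2 (median 0.42), against 22.8% and 24% of all rows. Leaving out 1 library gave 9 to 10 higher and 0 to 2 lower. PABPC1, the main cytoplasmic poly(A)-binding protein, rose by 0.71 in R2 (3321 ± 385 against 2018 ± 154; adjusted p 0.00216), and CSTF3 of the cleavage stimulation factor by 0.50 (adjusted p 0.00725). In R1, CLP1 rose by 0.52 (adjusted p 0.006), and NUDT21 fell by 0.73 (adjusted p 0.00229) and CPSF7 by 0.48 (adjusted p 0.00613). In R2, 6 rose without R1 replicate 2 and 2 without control replicate 3 or 4; in R1, 1 rose on leaving out R1 replicate 1, 3 or 4, or control replicate 3 or 4, and 2 fell without R1 replicate 2, R2 replicate 1 or control replicate 1 or 2. The part of poly(A) addition in the signal of the clustered genes was not tested.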

How the data were processed

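Bulk RNA-seq of 12 libraries in 3 groups of 4 was used, grouped by their titles. The authors deposited 1 normalised signal per gene and library; the submitters' processing notes name STAR, edgeR and the build GRCh38, while versions, annotation and the treatment of reads that match several genes are not given in the sources used here. Each deposited signal is a whole number of reads times a factor of its library: 100% of values came out whole within 0.001, which gave the depths of 20003891 to 39009384 reads. A value of 1 read was at most 0.0525, so genes listed near 0.3 rest on few reads.

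Differences were tested with limma 3.58.1 (R 4.3.3) on log2(signal + 0.5), 3 group means over all 12 libraries, mean-variance trend, two-sided, Benjamini-Hochberg over 12931 rows, called under 0.05. On the recovered reads edgeR 4.0.16 called 5645 genes in R1 against control, 3564 in R2 against control and 5988 between R2 and R1. The alternatives were pseudocounts of 0.1 and 2, a mean of at least 5, rescaling without mitochondrial and ribosomal protein genes, edgeR, DESeq2 1.42.0, a replicate block and leaving out each library; leaving out R1 replicate 2 and R2 replicate 2 together was chosen after seeing the data. The fitting scripts were tested on simulated data. Named were SLBP, each replacement gene, clustered genes that reached a group mean of 10 or were called without overlap, and up to 4 called genes with the smallest p of each list and comparison; the region genes HCG11, HMGN4 and ZNF184 were named after their values were seen. The members and lists were chosen with earlier results of these data known. GENCODE release 29 gave positions for 11836 rows (91.5%). No table of protein sequences was used.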

Additional observations from a re-analysis of the deposited data

Results flagged for a closer look

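In 69 groups of 4 values (23 members in 3 groups), 8 held a library far from the other three by Dixon's test, where chance flags about 1 in 20 groups. R2 replicate 2 was far above the rest in 4 clustered genes: HIST1H1C at 20.6 (others 2.75 to 5.44), HIST1H2BJ at 2.56 (0.593 to 0.814), HIST1H3H at 2.09 (0.2496 to 0.465) and HIST2H2BE at 8.57 (0.967 to 1.66). R1 replicate 2 was far below the rest in HIST1H2AG, at 2.37 (4.78 to 4.85). R1 replicate 1 was far below in HIST2H2BE, at 8.76 (12.3 to 12.9). Control replicate 1 was far above in HIST1H2BK, at 30.8 (19.5 to 20.95), and control replicate 3 far below in SLBP, at 73.0 (82.3 to 83.6).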

How the results depend on the processing

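SLBP in R1 and between R2 and R1 kept its direction and call in every fit, and no called result reversed. With only genes of a mean of at least 5, which leaves 5 of the 11 clustered genes, 4 rose and 0 fell in R1, 0 rose and 2 fell in R2, and 5 were lower in R2 than in R1. With a pseudocount of 2, 0 clustered genes rose in R2, and by edgeR 2 fell there. By DESeq2, 7 clustered genes rose in R1 and 7 were lower in R2 than in R1. DESeq2 left some comparisons without an adjusted p, and no clustered gene tested in R1 lost its call there. Leaving out 1 library gave 7 to 9 clustered genes risen and 2 fallen in R1, 0 to 1 risen and 2 to 4 fallen in R2, and 0 higher and 8 to 9 lower in R2 than in R1. The replacement genes called were 3 to 6 in R1, 2 to 3 in R2 and 1 to 2 between R2 and R1; the cause was not tested. SLBP ranged from -0.85 to -0.61 in R1, from -0.05 to 0.03 in R2 and from 0.60 to 0.85 between R2 and R1. For single genes, 2262 of the comparisons under other settings kept direction and call, 106 lost the call and 6 gained it. Same-numbered libraries of different groups had correlations of their deviations from -0.31 to 0.387, so the numbers are not treated as pairs; with the replicate block 5798 genes were called in R1 and 3733 in R2, with 8 clustered genes risen and 2 fallen in R1, and SLBP at -0.76. Depth limits HIST1H2BC and HIST1H3H, with 30 and 32 reads over the 4 controls.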
